A study of Mus musculus with 6 samples.

Results

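The adipokines are proteins that fat tissue releases into the blood or into its own surroundings, and 10 of their genes were followed here in brown adipose tissue (BAT) of mice that lack KRAP: Lep (leptin), Adipoq (adiponectin), Retn (resistin), Cfd (adipsin), Rbp4, Rarres2 (chemerin), Nampt (visfatin), Apln (apelin), Agt (angiotensinogen) and Lcn2 (lipocalin). Members were all probe sets of the Affymetrix whole-genome mouse array that the platform annotation gives to 1 of these symbols and to no other gene. The rule found 13 of the 45037 probe sets, for 9 of the 10 genes, out of 18193 genes that the annotation names. Cfd had no probe set under this rule and was not analysed here.

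KO denotes KRAP-/- mice, in which a neomycin cassette replaced part of the KRAP coding region in every tissue of the body, and WT denotes their wild-type littermates. BAT was taken at 32 weeks of age from animals on normal chow, KO1 to KO3 and WT1 to WT3, with 1 array per animal. An animal with the same number in both genotypes belongs to the same littermate pair, so that genotype was compared within 3 pairs. The line had been moved onto the C57BL6/J background. Each value below is a scaled signal, the deposited signal intensity of a probe set divided by the median of its array. A value of 1 is thus the median probe set, and levels are not set against each other between probe sets, which bind their targets unequally.

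Leptin reports the size of the fat stores to the brain, where it restrains feeding, and white adipocytes make much more of it than active brown adipocytes do. Adiponectin, resistin, RBP4 and chemerin act on insulin sensitivity, inflammation or both, and the blood carries them to liver, muscle and immune cells. Because adipokine output follows adipocyte size and type, these genes are commonly read in fat depots of lean and obese animals.

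The stretches just upstream of Lep and Retn are shown because these genes had the largest lower and the largest higher difference among the members. Both are RefSeq sequence of the GRCm38.p6 build, 250 bases ending at the base before the transcript start, written 5′ to 3′ on the plus strand, on which both genes lie. Lep lies at chr6:29060221-29073876 with its upstream stretch at chr6:29059971-29060220, and Retn lies at chr8:3655770-3659818 with its upstream stretch at chr8:3655520-3655769. Capitals mark the match to TTNNGCAA, a word bound by C/EBP factors.
Lep: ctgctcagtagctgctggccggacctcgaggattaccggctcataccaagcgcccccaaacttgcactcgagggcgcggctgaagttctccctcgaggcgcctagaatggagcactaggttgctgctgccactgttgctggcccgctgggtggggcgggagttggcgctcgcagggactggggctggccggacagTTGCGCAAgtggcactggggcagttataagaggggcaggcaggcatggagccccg
Retn: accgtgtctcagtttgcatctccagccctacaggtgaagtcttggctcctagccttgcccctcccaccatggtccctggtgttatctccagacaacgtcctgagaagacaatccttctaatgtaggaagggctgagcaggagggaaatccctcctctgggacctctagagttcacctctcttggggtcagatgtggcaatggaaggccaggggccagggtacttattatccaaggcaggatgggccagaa
The match in Lep reads TTGCGCAA on either strand and covers bases 55 to 48 before the start.

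Promoter sequence was found for 9 of the 10 members, and 5 words were searched on both strands over the same stretch. TTNNGCAA was also present upstream of Lcn2 and Rbp4, and 9.56% of 32851 mouse promoters held it. The TATA box TATAAA was found in Agt and Rbp4, against 12.4% of promoters. GGGCGG, the GC box, was found in Lep, Nampt, Rbp4, Apln and Lcn2, against 32.7% of promoters. AGGTCA, a word bound by nuclear receptors, was found in Nampt alone among the members, against 14.0% of promoters, and CACGTG, an E box, in no member, against 6.02%. No match overlapped a match to another word. These matches describe letters only and do not show that a factor is bound.

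Of all probe sets, 22356 had a mean scaled signal above 1 and were tested with limma. At an adjusted p of 0.05, 0 of them passed (0%), the smallest adjusted p was 0.117, and 1911 had an unadjusted p below 0.05. An exact permutation test of a single value could not go below p = 0.25 with 3 pairs, or below p = 0.1 with 3 arrays against 3. The probe set of the KRAP gene itself (Itprid2 in the annotation) read 47.0, 35.1 and 41.4 in KO1 to KO3 and 55.3, 56.6 and 42.2 in WT1 to WT3. Where it lies relative to the deleted part is not known here, so it checks no label. Array medians lay between 17.8 and 20.1 in KO and between 16.5 and 20.4 in WT, and the 3′ to 5′ ratio of actin, a sign of RNA quality, was 3.799 in WT2 against 1.91 to 2.58 in the other arrays. All 12 brown adipocyte markers, Ucp1 among them, were bright enough to be tested. Of these, 1 was lower and 0 were higher in all 3 pairs, against 19.7% and 10.9% of all 11140 tested genes, and 0 passed. They summed to 2715, 1946 and 2209 in KO1 to KO3 and 2665, 2390 and 1965 in WT1 to WT3. Ppargc1a and Dio2 read 111.4 and 101.1 in KO1 and 72.7 and 44.3 in WT1, against at most 12.2 and 15.3 in the other arrays. Ebf2 and Lhx8 were instead lowest in pair 1 in both genotypes. Skeletal muscle markers varied widely within each genotype, from 96.3 to 1001 in KO and from 183.3 to 465.7 in WT, where 0 of 9 kept one direction over the 3 pairs and 0 passed.

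Among the adipokines, 10 of the 13 probe sets were bright enough to be tested, and they stood for 7 genes. Lep and Rarres2 were lower in the KO animal of all 3 pairs, and Retn was higher in the KO animal of all 3 pairs. These were 2 and 1 of the 7 tested genes, where 19.7% and 10.9% of all 11140 tested genes were lower and higher. Adipoq, Nampt, Rbp4 and Apln went in mixed directions. An unadjusted p below 0.05 was reached by 4 of the 10 probe sets, 1 of Lep, 2 of Rarres2 and 1 of Retn, and by 1911 of all 22356. After adjustment over all tested probe sets, 0 of the 4 passed. By the 1.5-fold rule of the study, applied to each of the 3 pairs, 1 member probe set was lower in KO, that of Lep, where 0.819% of all tested probe sets were, and 1 was higher, that of Retn, where 0.555% were. With the signals as deposited, without scaling to the median, 0 members were higher by this rule.

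**Figure D1:**
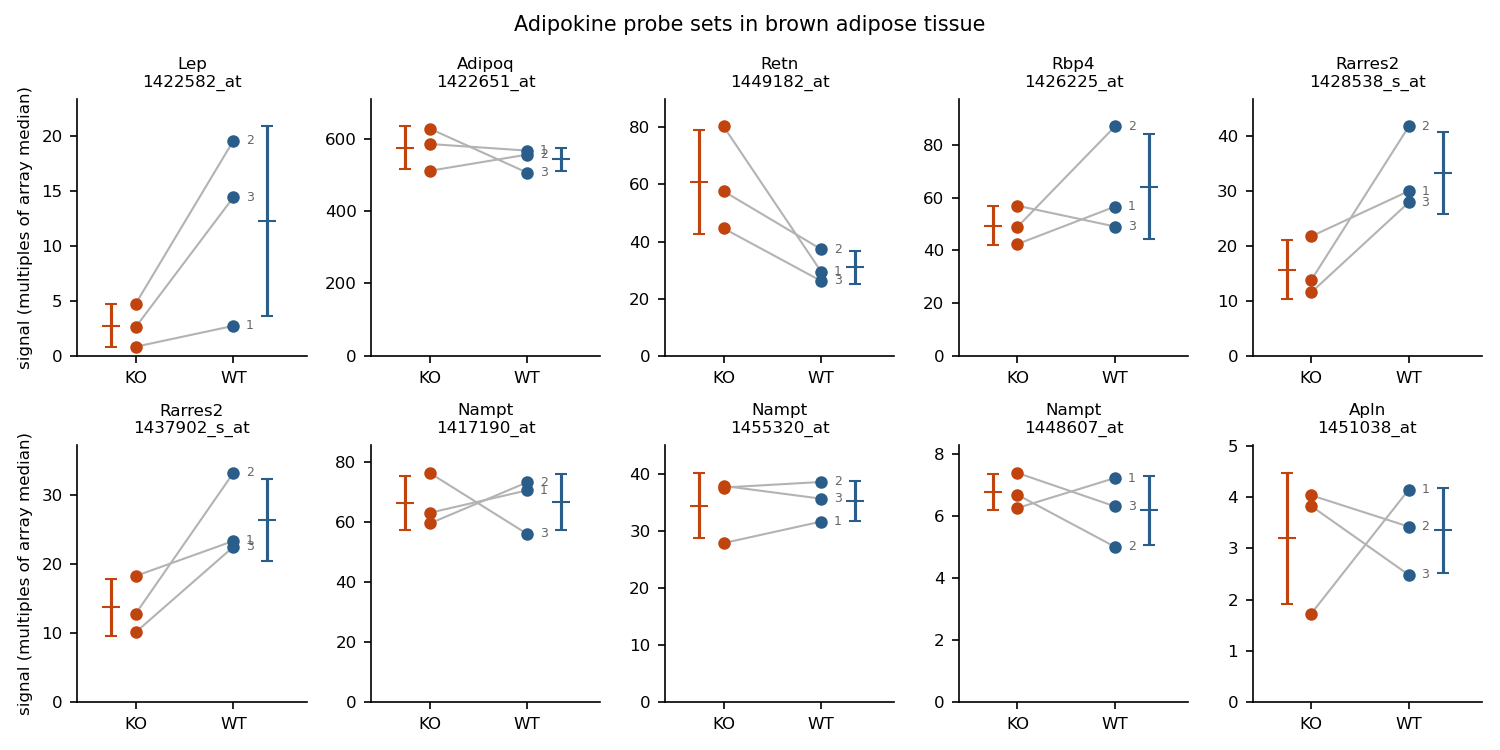
Scaled signal (multiples of the array median, linear axes from 0) of the 10 tested adipokine probe sets in KO (left, orange) and WT (right, blue) animals, with grey lines joining littermates, pair numbers at the WT points and bars for the mean ± SD of 3 arrays. All 3 lines run upward from KO to WT for Lep and for both Rarres2 probe sets and downward for Retn, while the lines of the other genes run both ways.

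Lep read 0.838, 4.76 and 2.64 in KO1, KO2 and KO3, against 2.74, 19.6 and 14.4 in WT1, WT2 and WT3. Pair 1 was the lowest in both genotypes and pair 2 the highest, and the groups overlapped because KO2 lay above WT1. Within pairs the order was the same throughout, with KO over WT ratios of 0.306, 0.243 and 0.183.

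The mean was 2.75 ± 1.97 in KO and 12.2 ± 8.63 in WT (SD, n = 3 each), and the log2 difference was -2.07 (95% confidence interval -2.59 to -1.54), a signal 4.19-fold higher in WT. Of the 22356 tested probe sets, 10 had a difference as low or lower, Lep included, or 0.0447%. In the limma fit with littermate pair as a block, Lep had an unadjusted p of 5.0e-05 and a limma adjusted p of 0.211, and so did not pass. Without the pair as a block, the limma adjusted p was 0.861, since the spread among animals of one genotype was then counted as error. The adjusted p ranged from 1.5e-06 to 0.861 over the alternatives and fell below 0.05 in 4 of them. Among these was the fit without pair 1, where the difference was -2.25 with a limma adjusted p of 2.0e-04. It was -2.08 without pair 2 (limma adjusted p = 0.788) and -1.87 without pair 3 (limma adjusted p = 0.285).

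White adipocyte markers went in mixed directions. Of the 9 tested genes in that list of 11, 0 passed the adjusted test, 4 were lower in all 3 pairs, where 19.7% of all 11140 tested genes were, and 1 was higher, where 10.9% were. The median log2 difference was -0.31 against -0.07 over all tested genes. Summed over the list, they read 75.3, 71.6 and 63.0 in KO1 to KO3 and 95.8, 126.0 and 121.1 in WT1 to WT3. Every KO animal thus lay below every WT animal, but the sum is weighted toward the brightest probe sets, those of Dpt and Npr3. Without Npr3, a choice made after seeing the data, the sums were 60.5, 53.7 and 47.0 in KO and 59.0, 84.1 and 68.7 in WT, and KO1 lay above WT1. Dpt, the brightest gene left, read 34.2, 32.15 and 28.78 in KO1 to KO3 and 27.15, 48.03 and 34.17 in WT1 to WT3. The order of the sums thus depends on which bright genes are included. The 4 genes lower in all 3 pairs were Sncg (-1.87), a synuclein of fat and neurons, Mest (-1.68), an imprinted gene tied to adipocyte size, Nnat (-1.65), another imprinted gene, and Npr3 (-1.42), the clearance receptor of natriuretic peptides. Dimmer Npr3 probe sets gave smaller differences, -0.97, without overlap between groups, and -0.96, with overlap. Hoxc9 (1.21), a positional marker of white fat, was the gene higher in all 3 pairs. It passed the filter only through KO, with a mean of 1.86 against 0.93 in WT, and its groups overlapped. Slc7a10 (0.49), an amino acid transporter, Nrip1 (0.05), Dpt (-0.17) and Hoxc8 (-0.31) varied in sign between pairs. Hoxc10, of the same Hox cluster, was below the filter with signals of at most 0.26.

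General adipocyte markers summed to 2352 to 2755 in KO and 2326 to 2758 in WT, so that the genotypes overlapped. The part of white adipocytes in the result was not tested, and in a whole tissue fewer cells of a type cannot be told apart from less RNA per cell.

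**Figure D2:**
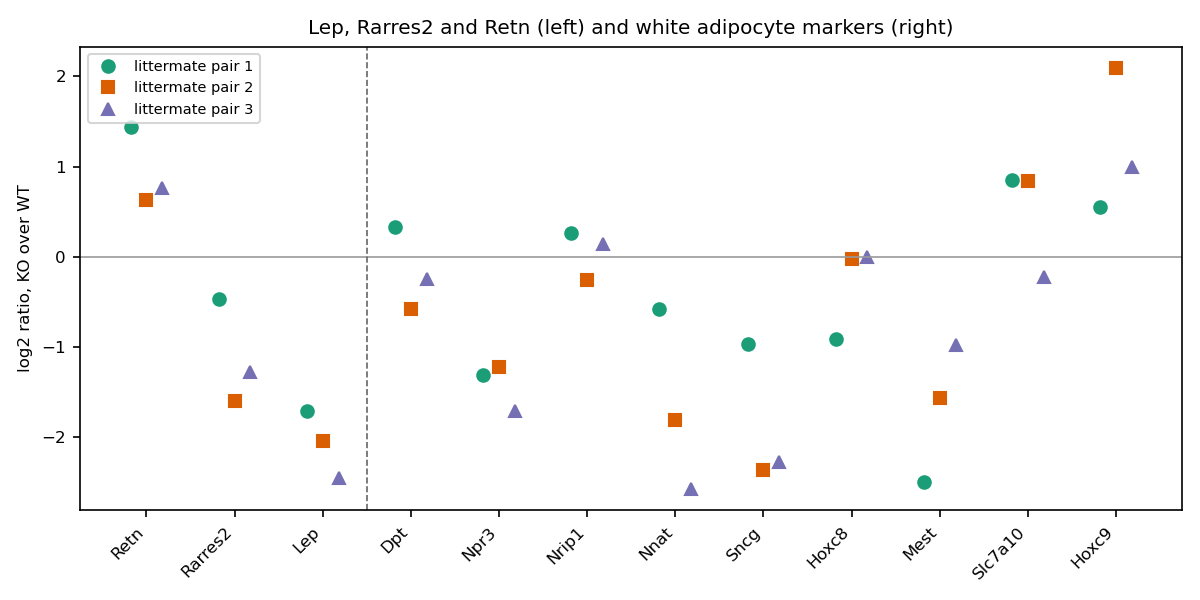
Log2 ratio of KO over WT in each littermate pair (circles pair 1, squares pair 2, triangles pair 3) for Retn, Rarres2 and Lep, left of the dashed line, and for the 9 tested white adipocyte markers, right of it. Lep, Rarres2, Npr3, Nnat, Sncg and Mest lie below 0 in all 3 pairs, and Retn and Hoxc9 lie above 0 in all 3.

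Rarres2, which lies on the same chromosome as Lep at chr6:48569696-48572845, encodes the precursor of chemerin, a chemoattractant for macrophages and dendritic cells that also acts on adipocytes. Its brightest probe set read 21.7, 13.8 and 11.6 in KO1 to KO3 and 30.0, 41.7 and 27.9 in WT1 to WT3. All KO values lay below all WT values, and the gap was narrowest in pair 1, at a KO over WT ratio of 0.725, against 0.331 in pair 2 and 0.414 in pair 3.

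The means were 15.7 ± 5.35 in KO and 33.2 ± 7.44 in WT (SD, n = 3 each). The log2 difference was -1.11 (95% confidence interval -1.74 to -0.48) at a limma adjusted p of 0.406. Without pair 1 the difference was -1.43 with a limma adjusted p of 0.0187. It was -0.87 without pair 2 (limma adjusted p = 0.788) and -1.03 without pair 3 (limma adjusted p = 0.530). The adjusted p ranged from 0.00454 to 0.788 over the alternatives. Its other tested probe set read 18.3, 12.9 and 10.2 in KO and 23.4, 33.2 and 22.5 in WT. It too kept the groups apart, at -0.96 (95% confidence interval -1.56 to -0.35) with a limma adjusted p of 0.439. This probe set lay at -1.26 without pair 1 (limma adjusted p = 0.0459), -0.75 without pair 2 (0.791) and -0.86 without pair 3 (0.582). Its adjusted p ranged from 0.00835 to 0.791 over the alternatives. The other Rarres2 probe set stayed below the filter, with 0.780, 0.113 and 0.851 in KO and 0.879, 0.372 and 1.18 in WT. It was not tested, and the KO animal was the lower one in all 3 pairs. Over all tested probe sets, 7.16% had every KO value below every WT value, against both tested Rarres2 probe sets, which target 1 gene and are not independent, and no other member.

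Retn encodes resistin, a cysteine-rich hormone that in the mouse comes from adipocytes and counters insulin action. It read 80.2, 57.6 and 44.6 in KO1 to KO3 and 29.5, 37.3 and 26.2 in WT1 to WT3. The lowest KO animal lay above the highest WT animal, which 4.59% of tested probe sets showed and no other member did.

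Resistin averaged 60.8 ± 18.03 in KO and 31.0 ± 5.71 in WT (SD, n = 3 each). The ratios of KO over WT were 2.72, 1.54 and 1.702 in pairs 1 to 3, and the log2 difference was 0.95 (95% confidence interval 0.39 to 1.502), or 1.93-fold. A difference as high or higher was found for 1.18% of tested probe sets, and the limma adjusted p was 0.413. Without pair 1 the difference fell to 0.70 (limma adjusted p = 0.468). It was 1.11 without pair 2 (limma adjusted p = 0.788) and 1.04 without pair 3 (limma adjusted p = 0.494). The adjusted p ranged from 0.00526 to 0.788 over the alternatives. In humans resistin comes mainly from macrophages. Macrophage markers summed to 108.7 to 122.4 in KO and 88.8 to 123.3 in WT and overlapped. Of 9 tested, 1 was lower and 3 were higher in all 3 pairs, against 19.7% and 10.9% of all genes, and 0 passed. Cd163, a scavenger receptor of resident macrophages, read 4.13, 5.49 and 5.01 in KO1 to KO3 and 2.60, 1.52 and 1.96 in WT1 to WT3, at 1.29 with a limma adjusted p of 0.396. Like Retn, it did not overlap between groups, and neither did Cd14 (0.44), a receptor for bacterial lipid, beside the 4.59% of tested probe sets that were higher without overlap. Cd163, Cd14 and Mrc1 (0.45) were the higher ones and Cd68 (-0.39) the lower one, and their part in the Retn result was not tested.

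**Figure D3:**
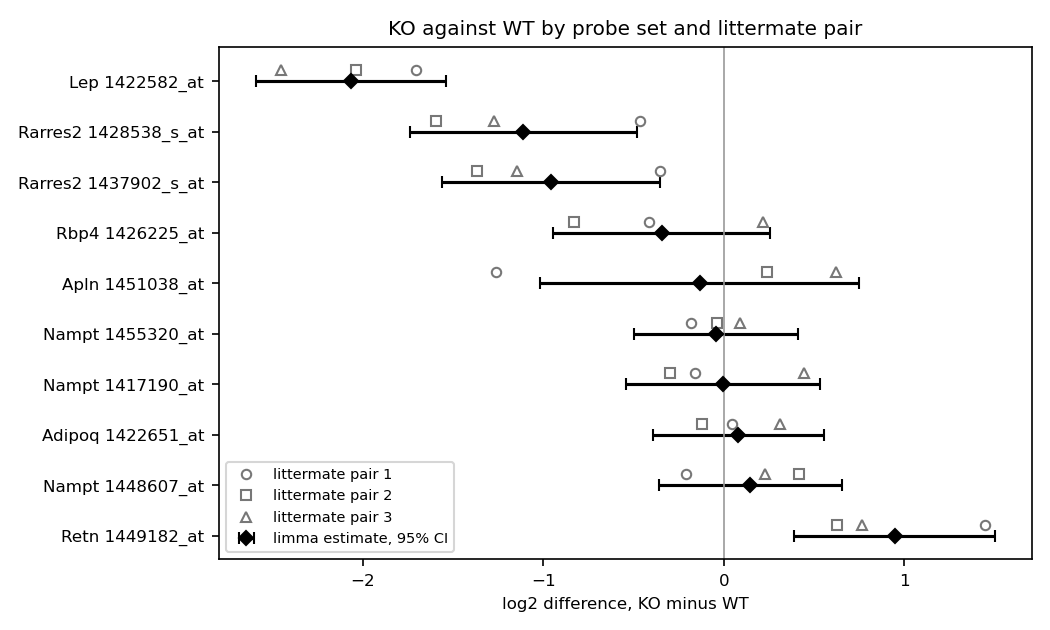
Log2 difference, KO minus WT, of each tested adipokine probe set, with the limma estimate and its 95% confidence interval (black) and the log2 ratio in each littermate pair (open symbols). The intervals of Lep, both Rarres2 probe sets and Retn do not include 0, and those of Rbp4, Apln, Nampt and Adipoq do.

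Adipoq, which encodes adiponectin, an abundant insulin-sensitising hormone of mature adipocytes, was among the brightest signals on the arrays and gave similar values in both genotypes. It read 585, 511 and 628 in KO1 to KO3 and 567, 556 and 506 in WT1 to WT3, up to 68.1% of the brightest probe set of the same array. KO was higher in 2 of 3 pairs, and the log2 difference was 0.08 (95% confidence interval -0.40 to 0.55, limma adjusted p = 0.945). It was -0.04 without pair 3. The interval spans both directions, so that the test does not show equality. General adipocyte markers overlapped in the same way, with 1 of 9 below and 2 of 9 above WT in every pair, against 19.7% and 10.9% of all 11140 tested genes. Of the 9, 0 passed, and the median log2 difference was 0.01.

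Rbp4, the carrier of retinol in blood, is made mainly by liver and also by fat. It read 42.4, 48.9 and 56.9 in KO1 to KO3 and 56.6, 87.0 and 49.1 in WT1 to WT3. KO was lower in pairs 1 and 2 and higher in pair 3, and the groups overlapped.

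The log2 difference of Rbp4 was -0.34 (95% confidence interval -0.94 to 0.26, limma adjusted p = 0.745). Hepatocyte markers summed to 5.21, 4.39 and 63.1 in KO1 to KO3 and to 4.51, 4.64 and 4.52 in WT1 to WT3, so that KO3 stood apart from all other arrays. Of 9 such markers, 4 were tested, with 0 passing the adjusted test. In all 3 pairs 1 was higher and 0 were lower, against 10.9% and 19.7% of all 11140 tested genes. In KO3, Alb (albumin) read 28.6 and Ttr (transthyretin, which binds RBP4 in blood) 14.7, against at most 1.18 and at most 0.07 in the other 5 arrays. The difference of Rbp4 was -0.62 without pair 3 (limma adjusted p = 0.622) and -0.10 without pair 2 (limma adjusted p = 0.958). Leaving out a pair changes the animals compared and does not separate liver RNA, whose part in the Rbp4 value was not tested.

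Nampt encodes the enzyme that recycles nicotinamide toward NAD and is also found outside cells as visfatin. Its brightest probe set read 63.0, 59.5 and 76.3 in KO1 to KO3 and 70.5, 73.2 and 56.0 in WT1 to WT3. The groups overlapped, with KO lower in pairs 1 and 2 and higher in pair 3.

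The 3 Nampt probe sets gave log2 differences of -0.005 (95% confidence interval -0.54 to 0.53), -0.04 (-0.50 to 0.41) and 0.15 (-0.36 to 0.65), with limma adjusted p-values of 0.999, 0.970 and 0.895. The second read 27.9, 37.7 and 37.9 in KO and 31.7, 38.6 and 35.7 in WT, and the third read 6.26, 6.68 and 7.39 in KO and 7.22, 5.01 and 6.31 in WT. They disagreed in sign, and the sign of the brightest turned with the scaling, at 0.06 for the signals as deposited and 0.05 after quantile normalization. No direction can be read for Nampt.

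Apln encodes the precursor of apelin, a small peptide of endothelial cells and adipocytes that acts on vessels and heart. It read 1.73, 4.03 and 3.82 in KO1 to KO3 and 4.15, 3.42 and 2.48 in WT1 to WT3. KO1 was the lowest animal and WT1 the highest, and the other pairs ran the opposite way, at ratios of 0.417, 1.18 and 1.54.

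The log2 difference of Apln was -0.13 (95% confidence interval -1.02 to 0.75, limma adjusted p = 0.949), the widest interval among the tested members, and it turned to 0.43 without pair 1. Agt, the precursor of angiotensin and a known product of adipose tissue, stayed below the filter with 0.256, 0.157 and 0.110 in KO and 0.310, 0.621 and 0.168 in WT. Lcn2, a siderophore-binding protein of neutrophils and inflamed fat, was below 0.25 in all 6 arrays, between 0.046 and 0.122 in KO and 0.113 and 0.147 in WT. At such signals no difference was detectable for either gene.

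Of 17 receptors of these hormones with a probe set, 10 were tested, and KO lay below WT in every pair for 6 of these and above WT in every pair for 1. Over all 11140 tested genes the shares were 19.7% and 10.9%. None passed the adjusted test (0 of 10, 2 with an unadjusted p below 0.05), and the median log2 difference was -0.29 against -0.07 over all genes.

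Aplnr, the apelin receptor, a marker of angiogenic endothelium, read 3.30, 35.1 and 28.8 in KO1 to KO3 and 10.1, 41.5 and 46.5 in WT1 to WT3. As with Lep, pair 1 was the lowest in both genotypes and KO lay below WT in every pair while the groups overlapped. The log2 difference was -0.85 (limma adjusted p = 0.515), and a dimmer probe set of the gene gave -0.94. Endothelial cell markers summed to 66.6 to 83.7 in KO and 75.8 to 92.7 in WT, and 4 of the 8 tested were lower in all 3 pairs, 0 were higher and 0 passed, against 19.7% lower and 10.9% higher over all genes, with a median of -0.20. Their part in the Aplnr values was not tested.

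Cdh13, the T-cadherin that retains adiponectin on endothelium, read 9.11, 5.53 and 5.63 in KO1 to KO3 and 10.4, 11.1 and 9.08 in WT1 to WT3, a difference of -0.63 (limma adjusted p = 0.529) with KO1 just above WT3. A dimmer tested probe set of Cdh13 gave -0.56, without overlap between groups. Adipor2, an adiponectin receptor, read 104.5, 109.6 and 117.0 in KO and 144.5, 179.8 and 128.9 in WT. Its groups did not overlap, which 7.16% of tested probe sets showed with KO lower. The difference was -0.44 with a limma adjusted p of 0.633, and the dimmer probe set of Adipor2 gave -0.42. Adipor1, the related receptor, gave -0.08 on its brightest probe set, and its dimmer ones gave -0.29, without overlap between groups, and -0.31, in mixed directions. The chemerin receptors differed from one another in sign, with Ccrl2, a receptor that binds but does not signal, at -0.54, Cmklr1, the signalling receptor, at 0.26 and Gpr1, a further receptor that was higher in all 3 pairs, at 0.34. Lepr, the leptin receptor, was below the filter on all 4 of its probe sets, the brightest at 0.615, 0.398 and 0.675 in KO and 0.504, 0.264 and 0.657 in WT.

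Of 10 genes of leptin receptor signalling with a probe set, 9 were bright enough to be tested, unlike the receptor. Every pair had the lower signal in KO for 2 of 9 tested genes and the higher signal in KO for 0, close to or below the 19.7% and 10.9% over all genes. The median log2 difference was 0.04. Ptpn11, the phosphatase SHP2, read 39.4, 43.2 and 41.0 in KO1 to KO3 and 51.2, 72.1 and 50.4 in WT1 to WT3. It did not overlap between groups, beside 7.16% of tested probe sets, at -0.47 (limma adjusted p = 0.590), though a dimmer probe set gave -0.03. Jak2, the kinase bound to the receptor, was the other one, at -0.22. Ptpn2, a phosphatase acting on JAK and STAT proteins, lay at 0.13 and Sh2b1, an adaptor of JAK2, at 0.10, both in mixed directions, and 0 genes of the list passed.

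Among 13 tested genes that fold, cleave or carry adipokines, 1 was lower and 4 were higher in all 3 pairs, against 19.7% and 10.9% of all genes, 0 passed, and the median was 0.14. Cma1, mast cell chymase, which can cleave chemerin and angiotensin precursors, read 6.74, 5.15 and 4.32 in KO1 to KO3 and 2.11, 3.09 and 3.02 in WT1 to WT3. All KO values exceeded all WT values, as for 4.59% of tested probe sets, at 0.98 with a limma adjusted p of 0.442. Ttr, at 1.96, was above the floor of 0.25 in KO3 only. Enpep, an aminopeptidase of the angiotensin pathway, lay at 0.25, and Ero1a, an oxidase of the endoplasmic reticulum that assists adiponectin assembly, at -0.24.

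Of 11 tested genes of NAD synthesis and use, which share a pathway with Nampt, 1 was lower and 3 were higher in all 3 pairs, beside the same background shares, 0 passed and the median was -0.05. Naprt, which starts NAD synthesis from nicotinic acid, read 10.7, 11.1 and 9.01 in KO1 to KO3 and 7.15, 8.62 and 5.33 in WT1 to WT3, without overlap. Its log2 difference was 0.57 (limma adjusted p = 0.515), whereas Nadsyn1, the last enzyme of the same route, lay at -0.53 (limma adjusted p = 0.597), also without overlap. Of all tested probe sets, 4.59% were higher and 7.16% lower in KO without overlap. Nnmt, which methylates nicotinamide, lay at 0.19, and Nadk, the NAD kinase, at 0.16.

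**Figure D4:**
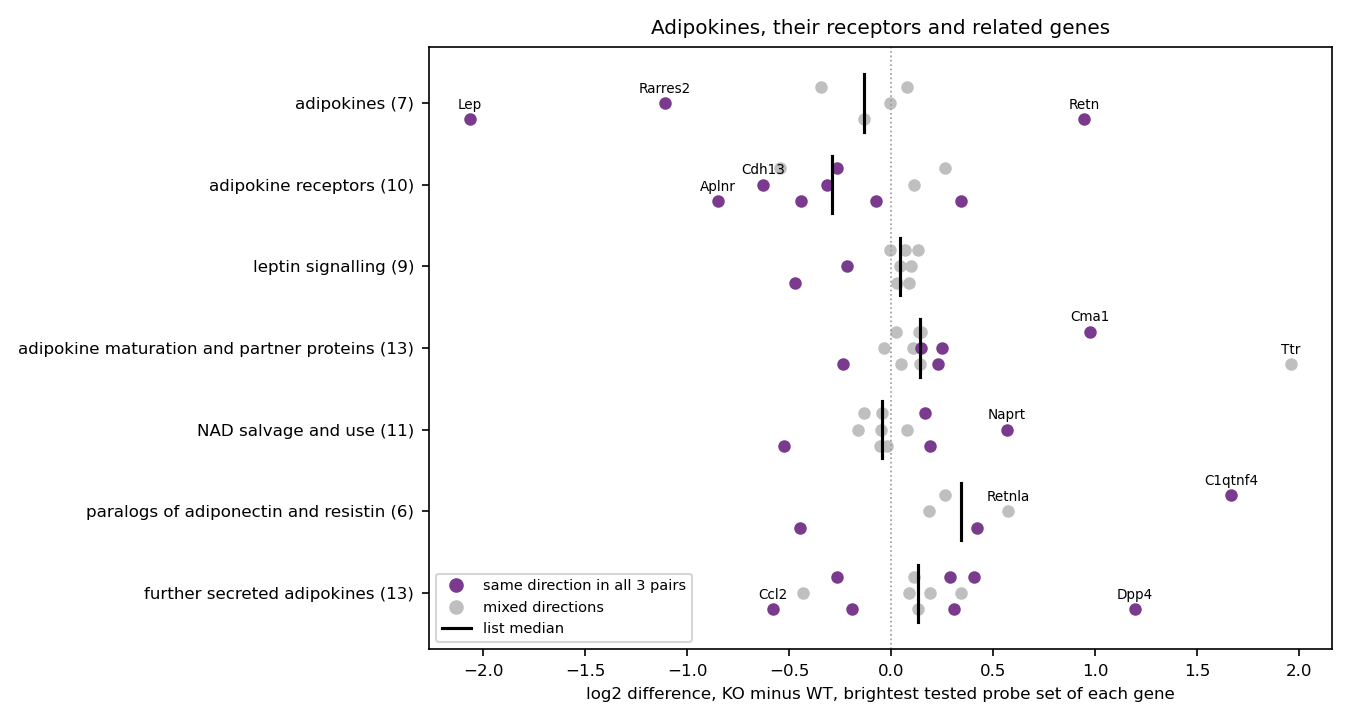
Log2 difference, KO minus WT, of the brightest tested probe set of each gene in the adipokine list and 6 related lists (number of tested genes in parentheses), in purple where all 3 littermate pairs agreed in direction and in grey where they did not, with a black line at each list median. The receptor list has its median at -0.29, left of the other lists, and Lep is the lowest point of the plot.

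Across the 6 arrays, the genes with log2 values most like those of Lep, out of 11140, were Gadd45a (r = 0.994), Svil (0.994), Cd53 (0.990), Ptpn9 (0.989) and Zfp608 (0.988). Gadd45a is a stress-induced growth arrest gene, Svil encodes the actin-binding supervillin and Cd53 a tetraspanin of leukocytes. The 5 were picked for this likeness, so that their lower signals in KO in all 3 pairs are no separate result. Their differences were far smaller than that of Lep, from -0.51 for Gadd45a to -0.10 for Ptpn9. With 6 arrays, of which pair 1 was low in both genotypes, such values are a description of these arrays. Among the members, Rbp4 (0.647) and Rarres2 (0.489) were the most like Lep, and Retn (-0.669) and Adipoq (-0.573) the least, with Apln (0.309) and Nampt (-0.108) between them.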

How the data were processed

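RNA from BAT of 3 KO and 3 WT mice was hybridised to Affymetrix whole-genome mouse arrays. For each probe set the authors deposited a linear signal intensity. GCOS, its version not given in the sources used here, produced it according to the labels. The 64 control probe sets were set aside, each intensity was divided by its array median as in the methods of the study, a floor of 0.25 was applied and the result was taken to log2. The test was limma 3.58.1 (R 4.3.3, lmFit and eBayes) over probe sets whose mean exceeded 1. Its terms were genotype and littermate pair, and p-values were adjusted by Benjamini-Hochberg over all 22356. A fold understates changes near the floor. The annotation gave 1 symbol to 34945 probe sets, several to 932 and none to 9160. The brightest tested probe set stood for a gene. A probe set near the filter can pass through 1 genotype only, such as those of Ccl2 and Ccrl2 through WT and that of Gpr1 through KO.

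The labels number the animals of each genotype, and the methods of the study compare KO and WT of the same number, from 3 pairs of littermates. Deviations from group means correlated at 0.446, 0.085 and 0.160 within pairs and at -0.359 to 0.281 between pairs. Named were all members, up to 4 genes with the largest differences of each list of related genes and the 5 genes most like Lep. Genes named for large differences are more likely to keep the groups apart. Other genes are named where a value above turns on them and were chosen after their values were seen. Members and lists were chosen with earlier results of these data known. The fit was tested on simulated data. Alternatives changed the scaling, the floor, the filter, the eBayes prior, the block, the probe set rule and the pairs used. With 1 array per animal, the number of arrays limits the precision.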

Additional observations from a re-analysis of the deposited data

How the results depend on the processing

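No result of Lep, Rarres2, Retn, Rbp4 or the dimmest tested Nampt probe set changed direction under any alternative. The count of passing probe sets, 0 with the settings above, was 123 with a pseudocount of 1 in place of the floor, 311 with a prior that was robust and followed intensity and 40 with the filter above 2, and it ranged from 0 to 255 when a pair was left out, with the 255 found without pair 1. It stayed at 0 without the replicate block, where the paired design was dropped. Lep reached a limma adjusted p of 0.00253 at -1.65 with the pseudocount, 1.5e-06 with the trend and 0.00268 with the filter above 2, Rarres2 0.0336 at -1.06 and 0.00454 in the first and second of these, and Retn 0.0479 at 0.92 and 0.00526. The other tested Rarres2 probe set reached 0.00835 with the trend. The causes were not tested.

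Members 1.5-fold lower in all pairs used ranged from 1 to 3 when a pair was left out, with 3 without pair 1, and members 1.5-fold higher were 0 for the signals as deposited, where Retn in pair 3 lay under 1.5-fold. The brightest Nampt probe set turned to 0.057 with the signals as deposited, 0.052 after quantile normalization and 0.032 as the mean over its probe sets, and ranged from -0.231 to 0.142 when a pair was left out. The second Nampt probe set turned to 0.018 as deposited and 0.023 after quantile normalization and ranged from -0.11 to 0.026. Apln ranged from -0.512 to 0.43, with the higher value without pair 1, and Adipoq from -0.038 to 0.178, with the lower value without pair 3. The member values under the filter alternatives were added after seeing the data. Signals near the background bound what can be said of Agt, Lcn2 and Lepr.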

Other observations

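Relatives of adiponectin and resistin were read beside the members. Of 6 tested paralogs, 1 was lower and 2 were higher in KO in all 3 pairs, where 19.7% and 10.9% of all tested genes were, 0 passed and the median log2 difference was 0.34. C1qtnf4, a C1q and TNF related protein, read 2.00, 2.24 and 1.82 in KO1 to KO3 and 0.801, 0.348 and 0.912 in WT1 to WT3. All KO values lay above all WT values, as for 4.59% of tested probe sets, at 1.67 with a limma adjusted p of 0.396. Its mean was 2.02 in KO and 0.69 in WT, so that it passed the filter only through KO. It is 1 of the 2 counted as higher, and that count is no separate support. C1qtnf1 lay at 0.42 and C1qtnf9 at -0.45. Retnla, the resistin-like alpha of alternatively activated macrophages, read 13.3, 50.0 and 25.6 in KO and 20.9, 12.3 and 20.2 in WT, at 0.57 in mixed directions.

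Further secreted adipokines numbered 13 tested genes, of which 3 were lower and 4 higher in all 3 pairs, beside the same shares, 0 passed and the median was 0.13. Dpp4, a membrane peptidase also shed by adipocytes, read 2.09, 2.44 and 1.77 in KO1 to KO3 and 1.09, 0.897 and 0.770 in WT1 to WT3. This probe set did not overlap between groups, as 4.59% of tested probe sets did with KO higher, at 1.20 with a limma adjusted p of 0.396. A dimmer tested one gave 0.51 in mixed directions, with overlap. Both passed the filter only through KO, with means of 2.10 and 1.24 in KO and 0.92 and 0.87 in WT. Fstl1, a secreted glycoprotein, lay at 0.40, Ccl2, a monocyte chemokine, at -0.58, and Sfrp5, a Wnt antagonist, at -0.43 in mixed directions.

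Neutrophil markers, which include the cells that make most lipocalin-2, summed to 13.3 to 17.9 in KO and 6.94 to 13.4 in WT. Of 3 tested, 0 were lower and 1 was higher in all 3 pairs, beside 19.7% and 10.9% of all tested genes, and 0 passed. Lymphocyte markers summed to 4.22 to 6.91 in KO and 4.61 to 7.12 in WT, and erythroid markers to 9.71 to 18.8 in KO and 8.83 to 14.0 in WT. Of the 1 lymphocyte and 2 erythroid markers tested, 0 passed.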
